A study of Mus musculus with 7 samples.

Results

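Of the 75880 ATAC sites in the table of day 2 epiblast-like cells (EpiLCs), 13203 were intergenic and between 5 and 50 kb from a transcription start site (TSS), which is 17.4% of all sites and 17.9% of the 73736 sites on the autosomes. A site was counted here when its midpoint lay in no curated RefSeq transcript (NM and NR records, mm10) and its nearest TSS was over 5 and up to 50 kb away. No accessibility value entered this choice. WT EpiLCs came from the ESC clone CCE and Smad2/3 DKO EpiLCs from the clone KT15.1F6, both of strain 129/Sv//Ev, with 3 differentiations of each and 1 further library of transposase-treated genomic DNA from WT EpiLCs as the control for calling sites. The DKO clone carried the Smad2 tm1Rob allele and a CRISPR deletion of Smad3 exon 1, and all cells were taken from medium with PD0325091, CHIR99021 and LIF into N2B27 with Fgf2, Activin A and KSR for 48 h. With 1 clone per genotype, genotype and clone cannot be told apart. The table gave 1 mean log2 concentration per genotype and site (the authors' mean of normalised reads on a log2 scale) and no value per library, so the values below carry no SD and no test, and a difference is the DKO minus the WT concentration.

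Activin and Nodal bind receptors that phosphorylate Smad2 and Smad3, which then enter the nucleus with Smad4 and bind DNA together with partners such as FoxH1, a forkhead protein, and with lineage factors such as Oct4. Intergenic accessible sites some distance from a TSS are where many enhancers lie, and the passage from naive ESCs to primed EpiLCs is known to shift enhancer use under the direction of Oct4 and Otx2. ATAC measures how readily Tn5 transposase enters DNA, and an open site is not in itself an active enhancer.

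The reference sequence (C57BL/6J, mm10, plus strand) at the midpoints of 4 of the sites with the most negative differences shows what kinds of DNA stood at the lower end. Each site is named by the gene with the nearest TSS, and capitals mark exact matches to any of 12 consensus strings that are spelled out with the motif results.
Cyp2u1 (chr3:131317971-131318220): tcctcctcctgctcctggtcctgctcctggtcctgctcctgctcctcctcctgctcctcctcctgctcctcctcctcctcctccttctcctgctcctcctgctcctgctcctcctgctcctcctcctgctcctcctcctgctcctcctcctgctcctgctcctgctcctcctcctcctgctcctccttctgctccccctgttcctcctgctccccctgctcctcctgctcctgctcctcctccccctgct
Btbd7 (chr12:102888601-102888850): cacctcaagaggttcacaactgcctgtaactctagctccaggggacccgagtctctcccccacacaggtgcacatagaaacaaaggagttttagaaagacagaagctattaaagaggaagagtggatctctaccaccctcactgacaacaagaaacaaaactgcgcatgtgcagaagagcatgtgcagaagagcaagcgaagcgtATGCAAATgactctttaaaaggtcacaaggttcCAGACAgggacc
Lefty1 (chr1:180924901-180925150): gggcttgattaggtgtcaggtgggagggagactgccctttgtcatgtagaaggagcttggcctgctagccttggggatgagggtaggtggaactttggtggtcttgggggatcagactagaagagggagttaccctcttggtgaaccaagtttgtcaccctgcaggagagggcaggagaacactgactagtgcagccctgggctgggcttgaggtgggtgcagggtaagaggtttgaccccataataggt
Tcf7l1 (chr6:72825241-72825490): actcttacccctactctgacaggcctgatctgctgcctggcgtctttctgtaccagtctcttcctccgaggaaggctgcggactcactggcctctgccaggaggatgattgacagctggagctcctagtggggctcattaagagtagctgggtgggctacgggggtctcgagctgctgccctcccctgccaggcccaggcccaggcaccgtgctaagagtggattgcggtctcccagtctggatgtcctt

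The Cyp2u1 sequence was a run of short cytosine-rich repeats, and repeat-masked bases made up 98.4% of the 500 bp around its midpoint. Repeats made up 0% of the Lefty1 site and 9.80% of the Tcf7l1 site. The Btbd7 stretch held an octamer (the Oct4 string) and a Smad string. The 4 most positive differences, shown for the same reason, had these sequences.
Abcc9 (chr6:142722856-142723105): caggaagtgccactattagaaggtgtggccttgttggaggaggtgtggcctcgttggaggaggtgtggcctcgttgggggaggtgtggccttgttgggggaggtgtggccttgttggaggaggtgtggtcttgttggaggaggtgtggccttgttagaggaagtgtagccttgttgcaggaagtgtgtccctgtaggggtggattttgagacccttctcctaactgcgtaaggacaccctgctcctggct
Zfp518b (chr5:38658826-38659075): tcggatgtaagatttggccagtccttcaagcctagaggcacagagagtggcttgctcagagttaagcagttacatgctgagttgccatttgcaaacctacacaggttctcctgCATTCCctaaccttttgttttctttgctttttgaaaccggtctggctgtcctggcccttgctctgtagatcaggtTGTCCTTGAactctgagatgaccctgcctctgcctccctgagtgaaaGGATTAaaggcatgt
Ythdc1 (chr5:86851846-86852095): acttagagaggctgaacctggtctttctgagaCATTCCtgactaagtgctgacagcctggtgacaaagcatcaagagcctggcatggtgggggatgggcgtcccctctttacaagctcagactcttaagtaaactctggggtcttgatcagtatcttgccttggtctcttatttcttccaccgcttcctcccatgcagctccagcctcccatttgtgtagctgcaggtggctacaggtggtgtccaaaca
Fosb (chr7:19302216-19302465): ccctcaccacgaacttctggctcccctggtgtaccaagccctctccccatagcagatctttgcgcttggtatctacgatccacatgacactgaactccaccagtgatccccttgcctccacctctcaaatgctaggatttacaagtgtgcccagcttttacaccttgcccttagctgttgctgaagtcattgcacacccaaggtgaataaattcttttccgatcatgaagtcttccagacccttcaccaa

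The Abcc9 site was a tandem array of a short unit, with 77.8% of its 500 bp masked as repeat, and the Fosb site held 6.40%. Zfp518b and Ythdc1 each carried a Tead string. A further 2 stretches of 120 bases were chosen after their values were seen, because they hold strings for FoxH1 and Otx2 near Lefty1 and Fgf5.
Lefty1 stretch (chr1:180924776-180924895): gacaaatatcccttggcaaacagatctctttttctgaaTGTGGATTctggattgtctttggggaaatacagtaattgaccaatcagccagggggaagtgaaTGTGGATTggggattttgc
Fgf5 stretch (chr5:98283806-98283925): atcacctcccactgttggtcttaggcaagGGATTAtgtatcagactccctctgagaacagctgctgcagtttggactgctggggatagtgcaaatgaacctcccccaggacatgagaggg

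The Lefty1 stretch, in the outer part of the site, held the FoxH1 string in 2 copies on the same strand. The Fgf5 stretch held an Otx2 string. The cells were of a 129 strain, so bases that differ between strains are not seen in these letters, and a match describes the sequence only.

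Intergenic sites in this distance range were moderately open. Over all 13203 sites the WT concentration had a median of 4.81, quartiles of 4.07 and 5.71 and a range of -0.09 to 10.19, and the DKO median was 4.71. Few reads lie behind the lowest values, with 20 sites at the lowest WT value and 29 at the lowest DKO value of -0.10. Counts of differing sites were therefore restricted to sites with a concentration of at least 5 over both genotypes, which is a mean of 32 normalised reads. This left 5634 sites (42.7%) nearest to 4124 genes, against 50.1% of all autosomal sites, and put 7569 aside.

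Among these 5634 sites the median concentration was 5.88 in WT and 5.78 in DKO, while sites within 1 kb of a TSS had medians of 7.04 and 7.07. Part of that gap lay in size, since the intergenic sites were 520 bp wide at the median and the TSS sites 860 bp. Per kilobase, WT medians on the log2 scale were 6.88 for the intergenic sites and 7.25 for the TSS sites, with 6.91 for intergenic sites 50 to 500 kb away and 6.89 for intronic sites over 5 kb from a TSS. The intergenic sites had a median GC content of 49.6% and 8 CpG dinucleotides in 500 bp, against 65.0% and 41 at TSS sites, and repeats covered 22.9% against 6.53% on average. In sequence and in level per kilobase, these sites resembled the farther and the intronic ones more than the TSS sites.

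Of the targeted genes, only Smad3 lost its site, which lay at its TSS, in the region of exon 1 that was deleted in the DKO clone. Where that DNA is missing, the DKO value is not a measure of accessibility. The site at the Smad3 TSS had a concentration of 5.42 in WT and of -0.10 in DKO, whereas the site at the Smad2 TSS stood at 8.35 and 8.28. TSS sites of the epiblast genes Pou5f1, Sox2, Fgf5, Dnmt3b and Pou3f1 lay between 5.66 and 7.71 in WT, and Otx2 had no site within 1 kb. TSS sites of several genes of other lineages lay in or above that range in WT. They were Sox17 (7.61), Gata6 (6.91), Foxa2 (9.13), Cdx2 (7.24), Eomes (8.69), Tfap2c (7.11) and Col1a2 (7.81). Those of Col1a1 (5.57), Thy1 (5.29), Elf5 (4.55) and Sox7 (3.42) lay below it. An open TSS therefore does not by itself separate these cell types.

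Most of the intergenic sites differed little between WT and DKO, and those that differed were more often less open in DKO. The median difference was -0.09 with quartiles of -0.33 and 0.14, and 3379 of 5634 sites (60.0%) lay below 0. More than 1.5-fold lower in DKO were 529 sites (9.39%), more than 1.5-fold higher were 235 (4.17%), and 4870 (86.4%) lay within 1.5-fold. Over all 36960 autosomal sites at this minimum, 8.55% were lower and 3.12% higher, so the share of lower sites was near the background. The difference was also centred on its median of -0.08 over all 73736 autosomal sites, those under the minimum included. Centred so, 6.80% were lower and 5.73% higher (6.52% and 4.54% of the 36960 sites, whose centred median was 0.02). Beyond 2-fold, 132 sites (2.34%) were lower and 61 (1.08%) higher, against 2.26% and 0.598% of all autosomal sites.

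Position class and the share of lower sites moved together. At TSS sites 206 of 12015 (1.71%) were lower and 181 (1.51%) higher, with a median difference of 0.01. The lower share was 8.35% at intergenic sites 1 to 5 kb away, 14.1% at 50 to 500 kb and 20.99% beyond 500 kb, and for higher sites these classes had 4.04%, 3.91% and 3.75%. Intronic sites over 5 kb from a TSS had 12.6% lower and 4.02% higher. The intergenic sites at 5 to 50 kb therefore stood between TSS sites and farther intergenic sites in the lower direction, and next to both intergenic classes in the higher one. The gap to TSS sites was also present at like concentration. From 5 to 5.5, 13.1% of the intergenic sites, 5.91% of TSS sites, 15.4% of intronic and 16.1% of farther intergenic sites were lower, and from 7 to 8 the shares were 4.60%, 0.807%, 7.50% and 8%.

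**Figure D1:**
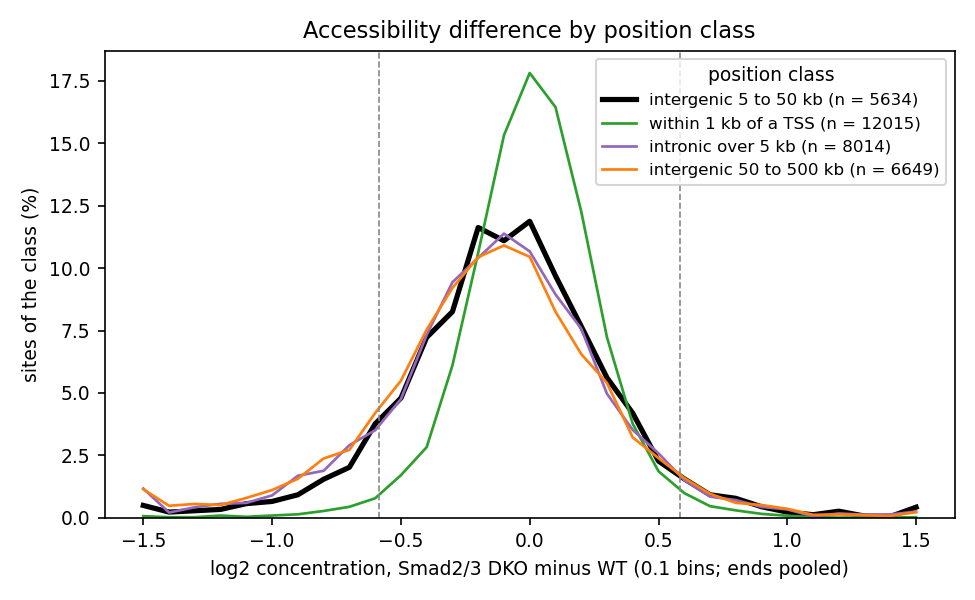
Percentage of the sites of each position class (y) by log2 DKO minus WT concentration in bins of 0.1 (x), for sites with a concentration of at least 5; dashed lines mark 1.5-fold and the end bins pool all farther values. The curve of the 5634 intergenic sites is centred just below 0 (median -0.09) and is broader than that of the 12015 sites within 1 kb of a TSS (median 0.01).

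The groups of lower and higher sites mirrored each other in level, which their choice by the difference fixes. The 529 lower sites had a median concentration of 5.95 in WT and 5.09 in DKO, next to 5.91 and 5.84 at the sites within 1.5-fold. The 235 higher sites went from 4.99 in WT to 5.89 in DKO. The minimum was set on the mean of both genotypes, so 226 lower sites (42.7%) passed it with a DKO value under 5 and 119 higher sites (50.6%) with a WT value under 5. Spread fell with level: the SD of the difference over sites was 0.50 between 5 and 5.5 and 0.27 above 8, where 5 of 190 sites were lower and 2 higher.

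**Figure D2:**
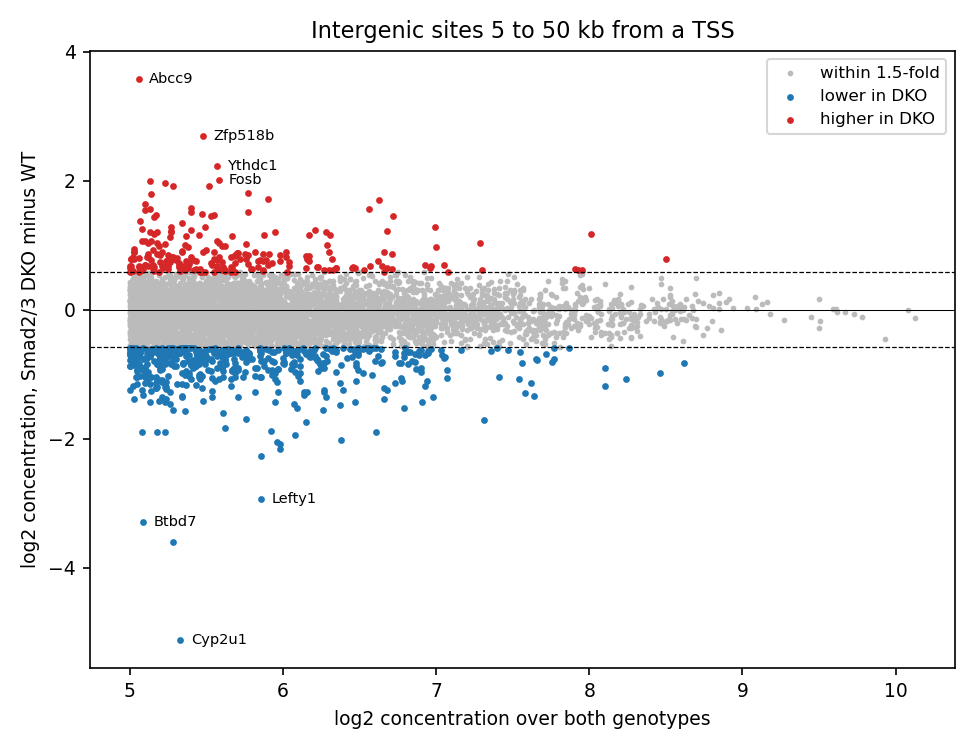
Log2 DKO minus WT concentration (y) against the log2 concentration over both genotypes (x) for the 5634 intergenic sites, with those over 1.5-fold lower in blue, higher in red and some of the most extreme on each side named. The scatter narrows to the right, and all the named sites lie below a concentration of 6.

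The lowest differences included a site by a Nodal target. The site 9997 bp upstream of Lefty1, which encodes a secreted inhibitor of Nodal, had a concentration of 6.68 in WT and 3.74 in DKO, a difference of -2.94 or 7.67-fold. It lies 31917 bp downstream of the TSS of the neighbouring Lefty2. The other autosomal sites within 1 Mb of it had a median difference of 0.02, so the Lefty1 site stood apart from its surroundings.

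The most negative difference of all was at the repeat by Cyp2u1, which encodes a cytochrome P450, with 6.29 in WT and 1.17 in DKO (-5.12, 34.8-fold). A DKO mean of only 2.25 normalised reads stands behind that fold, and no interval can be given without counts. Btbd7, a BTB-domain gene, had 5.95 and 2.66 at 10283 bp upstream (-3.29). The Tcf7l1 site had a difference of -2.27. Mrgpra6 and Gpr142, which encode G protein-coupled receptors, had differences of -2.05 and -2.09, and the site by the odorant receptor gene Olfr1262 had -1.90.

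On the other side, the site 20706 bp upstream of Abcc9, a subunit of ATP-sensitive potassium channels, had 2.36 in WT and 5.94 in DKO (3.58, 12.0-fold), with 5.13 normalised reads behind the WT mean. The Zfp518b site had 3.58 and 6.27 (2.69), and the site 47704 bp downstream of Ythdc1, a nuclear reader of m6A in RNA, 4.07 and 6.29 (2.22). The site by Fosb, a subunit of AP-1, had 4.25 and 6.26 (2.01). All 12 highest sites started from a WT concentration between 2.36 and 5.54.

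The fifth of these lay by the noncoding gene Gm38509 and 111490 bp downstream of the TSS of Sox2, the pluripotency factor, whose distal control region in ESCs is known to lie far downstream. Its concentration was 3.81 in WT and 5.80 in DKO (1.99). Another site on the same side of Sox2, 78500 bp downstream, had 5.23 and 5.64 (0.41), and the Sox2 TSS site 6.25 and 6.63. The interval between Tmtc1 and Gm6313 supplied an extreme on each side, with -1.95 at the site 25069 bp and 1.72 at the site 13704 bp downstream of the Gm6313 TSS.

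**Figure D3:**
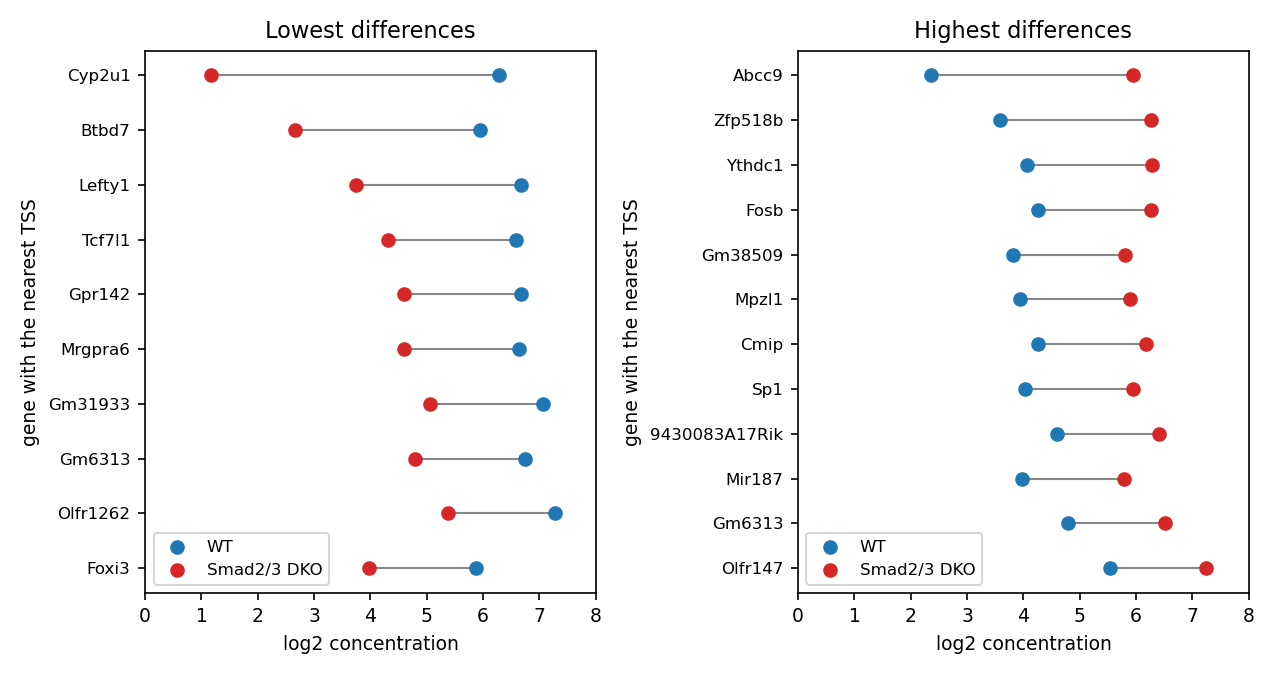
Log2 concentration (x) in WT (blue) and Smad2/3 DKO (red) EpiLCs at 10 of the 12 lowest and at the 12 highest differences, each row 1 site named by the gene with the nearest TSS (y). The lowest start from WT values between 5.88 and 7.27, and the 12 highest from WT values between 2.36 and 5.54.

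A stretch of chromosome 6 was lower in DKO at nearly every site of any class. Between chr6:70824320-78513290, a length of 7.69 Mb whose ends were set from the low values themselves, all 16 intergenic sites were over 1.5-fold lower, with differences from -2.27 to -0.65 and a median of -1.18. All 26 TSS sites there were lower as well, with a median of -1.07, and 87 of all 88 sites were. The sites by Tcf7l1, Foxi3 and Reg3g lay inside it, and the cause was not tested. Without the stretch 513 of 5618 intergenic sites (9.13%) were lower. With all of chromosome 6 left out, 9.27% of the intergenic sites and 8.35% of all autosomal sites were lower. Over all 529 lower sites, those in the stretch included, the local median within 1 Mb was -0.14 at the median. It was 0.01 around higher sites and -0.07 around the rest.

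Among 10 gene lists that were chosen with earlier results of these data known, with each site given to the gene with the nearest TSS, sites of Nodal pathway genes held the most differences outside the chromosome 6 stretch. Of 22 genes reported from this list, 11 had intergenic sites in range and 7 had sites at the minimum. Of these 7 sites, 3 were lower (42.9%, against 9.39% over all 5634) and 1 higher (14.3%, against 4.17%). Their median was -0.21, beside -0.09 over all 5634, and shares of 7 sites are coarse. The lower ones, besides Lefty1, were the site 24287 bp upstream of Pmepa1, which restrains TGF-beta signalling (5.35 in WT, 4.56 in DKO, -0.79), and the site 5403 bp upstream of Skil, a Smad corepressor (6.56, 5.78, -0.78).

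The rest of the Nodal group differed less. The Lefty2 site 18908 bp upstream had 5.79 and 5.68 (-0.11), the site by the inhibitory Smad7 5.23 and 5.02 (-0.21), and the site by Tgif1, a homeobox corepressor of Smads, 6.44 and 6.59 (0.15). The single higher site lay 45456 bp upstream of Smad3, whose exon 1 was deleted, with 6.09 in WT and 6.73 in DKO (0.64). Its surroundings were higher too, since the other autosomal sites within 1 Mb had a median difference of 0.20.

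Sites of primed pluripotency genes had shares close to those over all 5634 sites. Below 0 were 12 of 18 (66.7%, against 60.0%) and over 1.5-fold lower were 2 (11.1%, against 9.39%), with a median of -0.21. The site 29871 bp downstream of Fgf5, a marker of the primed epiblast, had 7.50 in WT and 6.15 in DKO (-1.35, 2.55-fold), and a site by Sox4 had 5.37 and 4.70 (-0.67). Sites by Sox11 and Otx2 had positive differences of up to 0.56 and 0.33. None of the 18 was over 1.5-fold higher.

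Sites of mesendoderm genes were below 0 at 12 of 13 (60.0% over all sites), with a median of -0.37, and 8 of the 13 lay by Foxa2 and Eomes alone. Over 1.5-fold lower was 1 site (7.69%, against 9.39% over all sites). It lay 6346 bp upstream of Foxa2, a forkhead factor of the anterior streak and endoderm, with 7.41 in WT and 6.22 in DKO (-1.19, 2.28-fold). In the GENCODE annotation a TSS lay 191 bp from this site. The other Foxa2 sites differed by -0.46 to -0.25, with a local median of -0.28 to -0.26. Eomes, a T-box gene of the streak and a Nodal target, had -0.57, -0.28 and -0.28, and T (Brachyury) had -0.52. Gsc, a homeobox gene of the organiser, had -0.51 and -0.28. The single positive value was 0.14, at Gata4.

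By nearest TSS, naive pluripotency genes (11 sites) and BMP pathway genes (4 sites) had no site past 1.5-fold. Over all 5634 sites 9.39% were lower and 4.17% higher, so lists this small can hold none at those shares. The 11 naive sites had a median of 0.15, from -0.56 at Klf5 to 0.45 at Zfp42 (Rex1), whose other site had 0.30. Nanog, a core naive factor, had -0.23 and 0.22 at its 2 sites. All 4 BMP sites, by Nog, Id2 and Msx1, lay above 0, with a median of 0.20, while 60.0% of all 5634 sites lay below 0. The 7 extra-embryonic sites had a median of -0.08 and a range of -0.24 to 0.49.

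Sites of neural genes had shares close to those over all sites, with 9.09% lower and 4.55% higher (9.39% and 4.17% over all sites). Of the 22, sites by Zic4 (-0.71) and Neurog2 (-0.68) were lower and the site 14353 bp upstream of Hes5, a Notch target, was higher (4.62 in WT, 5.60 in DKO, 0.98), with a median of -0.19. Of 9 FGF-ERK sites, the outermost Spry2 site, 45314 bp downstream of this ERK feedback inhibitor, was higher (4.41, 5.61, 1.20) and none was lower. Of 6 Hippo sites, a site 35025 bp upstream of Ccn1, a Yap target, was lower (7.15, 5.93, -1.22) and another, 17000 bp downstream, was higher (5.5, 6.40, 0.90). Of 12 Wnt sites 5 were lower, but 4 of those lay by Tcf7l1 in the chromosome 6 stretch and the remaining one by Wnt8a (6.07, 5.40, -0.67).

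Sites were also counted in every interval that a listed gene flanks, whichever TSS is nearest and at any distance from the listed gene. This added sites to most lists. Around naive genes 4 of 21 such sites were higher and 1 lower (19.05% and 4.76%), with a median of 0.15. The higher ones were 2 between Platr22 and Nr5a2, an orphan nuclear receptor gene (5.13 in WT and 5.90 in DKO, 4.98 and 6.01), 1 between Osmr and Lifr, both receptors of LIF family cytokines (4.80, 5.46), and 1 between Gm12505 and Klf4 (5.32, 6.10). The lower one lay between Fbxo15 and Gm32291 (6.04, 4.99). Around BMP genes 2 of 13 were higher and none lower, namely a site between Smad1 and Otud4 (4.81, 5.58) and the Smad3 site above, whose other flank is the inhibitory Smad6. Around primed genes 5 of 25 were lower (20.0%), of which 4 lay in the single interval between Fgf5 and Cfap299. Around neural genes 3 of 28 were lower and 1 higher, the added one lying between Gm28703 and Zic1 (8.08, 6.94, -1.14). Around Wnt genes 7 of 19 were lower, the 2 added ones lying between Axin2 and E030025P04Rik (-0.88 and -0.82). Around mesendoderm genes 1 of 18 and around extra-embryonic genes 1 of 16 were lower, and the Nodal, FGF-ERK and Hippo groups gained no site past 1.5-fold. The added lower sites flanked by Fbxo15, Zic1 and Axin2 lay well over 50 kb from the TSS of those genes. Over all sites 9.39% were lower and 4.17% higher, and several of these counts rest on 1 or 2 intervals.

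Few intergenic intervals held several differing sites. The 5634 sites fell into 3857 intervals between neighbouring genes, of which 2659 held a single site and the fullest held 8. Of the intervals, 46 had at least 2 sites past 1.5-fold, and in 26 of these all such sites were lower, in 9 all were higher and in 11 they went both ways. Only 7 had 3 or more.

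In the interval between Fgf5 and Cfap299, a cilia and flagella gene, all 4 sites at the minimum were lower, out of 5 sites in all. Beyond the Fgf5 site already given, sites 39296, 48526 and 56156 bp downstream of the Fgf5 TSS went from 7.25 to 6.58 (-0.67), from 5.36 to 4.76 (-0.60) and from 6.99 to 6.18 (-0.81). The median over all sites within 1 Mb was -0.25, and the Fgf5 TSS site itself was not lower (6.63 in WT and 6.86 in DKO). The interval was picked for its number of sites past 1.5-fold, so it follows from that choice that all 4 differences lay below the local median.

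The interval from Tcf7l1, a Wnt pathway repressor, to Kcmf1 also had 4 lower sites of 4 at the minimum, out of 5 sites in all. They went from 7.46 to 6.53 at 6125 bp upstream of Tcf7l1, from 6.59 to 4.32 at 36320 bp, from 6.35 to 5.34 at 39840 bp and from 6.07 to 4.71 at 42465 bp. The local median was -1.14 to -1.09, so 3 of the 4 differences (-0.93, -1.01 and -1.36) were close to those of everything around them and only the site at 36320 bp (-2.27) was well past them. Between the cadherin gene Cdh19 and Dsel, an interval of 881108 bp, all 5 sites at the minimum were below 0 and 3 were lower. Those with -0.77 and -0.63 lay by Cdh19 and the one with -1.17 by Dsel, at opposite ends of the interval. The local median around these 3 sites was -0.28 to -0.27. Between the UDP-glucuronosyltransferase genes Ugt2b38 and Ugt2a1, 3 of 4 were lower (-1.20, -0.92 and -0.62). The 7 sites at the minimum between Ralgps2 and Tex35 were mixed, with 2 lower (-0.88 and -0.75), 1 higher (0.90) and a median of -0.02.

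Upstream of Mir290a, the first of a cluster of microRNAs expressed in early embryonic and stem cells, 3 of the 4 sites at the minimum were higher. The interval held 8 sites in all. This interval had as many differing sites as the last of those above and was added after its values were seen. The 4 sites went from 4.62 to 5.54 at 24401 bp upstream, from 4.69 to 5.83 at 17126 bp, from 7.27 to 7.34 at 11941 bp and from 5.55 to 6.76 at 6381 bp. The site that was most open in WT was the one that hardly differed (0.07), and the other differences were 0.92, 1.14 and 1.21. The sites at 24401 and 17126 bp were under 5 in WT and passed the minimum through DKO. That both were above 0 therefore follows from the minimum. The local median was 0.07 to 0.10.

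**Figure D4:**
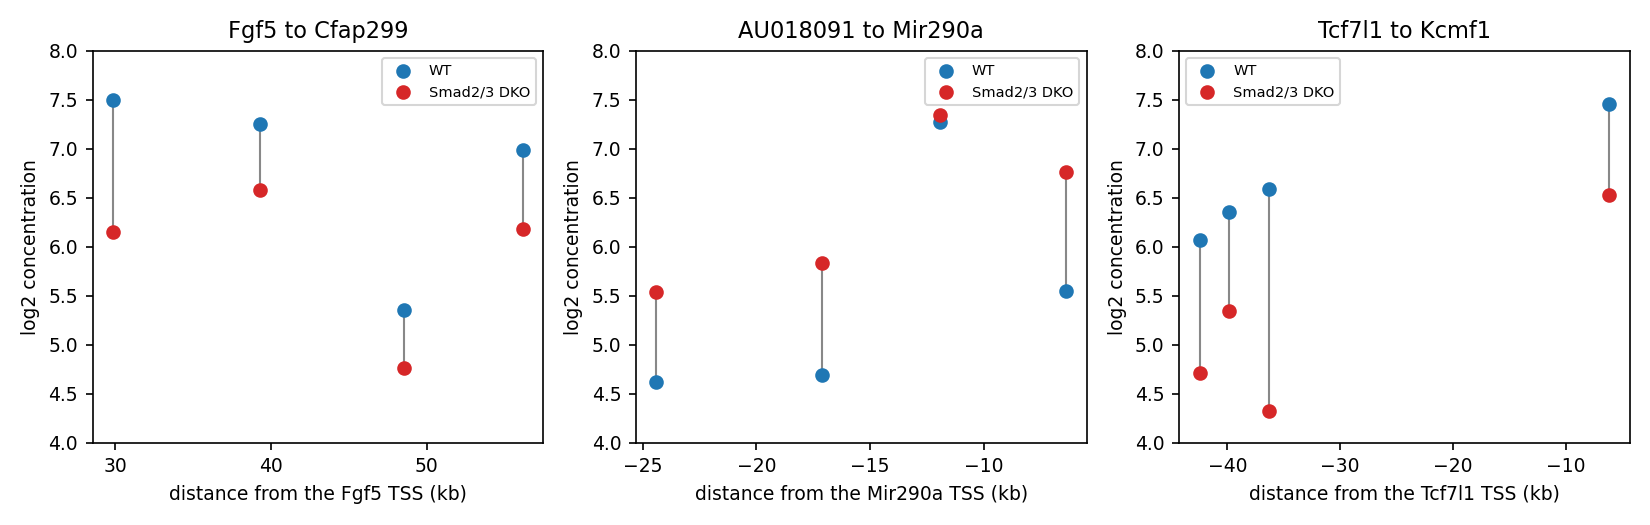
Log2 concentration (y, from 4 to 8) in WT (blue) and Smad2/3 DKO (red) EpiLCs against distance from the TSS in kb (x, negative upstream) at 3 loci. Only intergenic sites with a concentration of at least 5 are shown. All those between Fgf5 and Cfap299 and by Tcf7l1 are lower in DKO, and 3 of 4 upstream of Mir290a are higher.

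Lower and higher sites held some consensus strings in unequal shares within 500 bp around the midpoint, which are given as descriptions without a test. Matches were exact, on either strand, and overlapping matches of different strings were counted for each. The strings were CAGACA (Smad), TGTGGATT (FoxH1), ATGCAAAT (octamer), CATTGT (Sox), GGATTA (Otx2), TGTTTAC (forkhead), GGAATG (Tead), GGGNGNGGC (Klf), TCAAGGNCA (Esrrb), TGANTCA (AP-1), CTTTGAT (Tcf/Lef) and CNAGGGGGC (CTCF). The Smad string was too common to separate the groups, at 39.7% of lower, 40.4% of higher and 38.1% of remaining sites, against 32.9% of all autosomal sites.

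The octamer, Otx2 and forkhead strings were most frequent at lower sites. The octamer stood in 43 of 529 lower sites (8.13%), 14 of 235 higher (5.96%) and 209 of the rest (4.29%), with 4.17% over all autosomal sites. The Otx2 string stood in 21.7% of lower, 14.9% of higher and 15.3% of remaining sites (12.9% of all autosomal sites), and the forkhead string in 11.2%, 6.81% and 7.29% (6.34%). Read the other way, 16.2% of sites with an octamer were lower and 9.05% of those without. Of the 54 sites with both an octamer and an Otx2 string, 17 (31.5%) were lower, against 12.3% with the octamer alone, 11.7% with the Otx2 string alone and 8.57% with neither.

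The FoxH1 string was rare, in 16 lower sites (3.02%), 4 higher (1.70%) and 92 of the rest (1.89%), with 1.70% over all autosomal sites. Among the 132 sites over 2-fold lower its share was 5.30%. A Smad string beside it did not go with a larger share of lower sites, since 4 of 43 sites with both were lower (9.30%) and 12 of 69 with the FoxH1 string alone (17.4%). These are small numbers of sites.

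Sox and Tead strings were most frequent at higher sites. The Sox string stood in 83 of 235 higher sites (35.3%), against 21.9% of lower and 21.7% of remaining sites (18.9% of all autosomal sites). The Tead string stood in 39.6%, 31.6% and 28.6% (25.5%). Of the 390 sites with both, 8.97% were higher, against 3.02% of sites with neither. The Esrrb string was in 11 higher sites (4.68%) and in 3.00% of the rest. The AP-1 string was more frequent on both sides (18.5% of lower and 19.6% of higher sites) than in between (14.3%). The Klf string, which is rich in G and C, ran the other way, at 18.1% of lower, 20.0% of higher and 23.6% of remaining sites. Lower sites had a median GC content of 48.2%, higher sites 49.0% and the rest 49.8%, and the part of base composition in these shares was not tested.

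**Figure D5:**
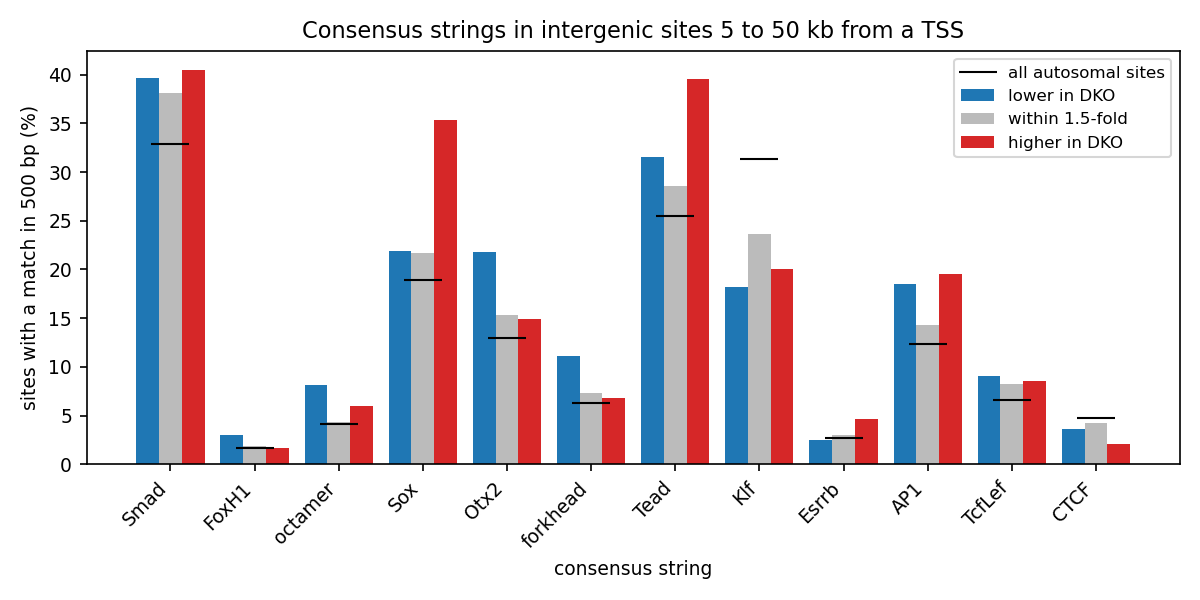
Percentage of the intergenic sites with at least 1 exact match in 500 bp (y) for 12 consensus strings (x), at sites lower in DKO (blue, n = 529), within 1.5-fold (grey, n = 4870) and higher in DKO (red, n = 235); black dashes give all autosomal sites. The blue bars stand out for octamer, Otx2 and forkhead strings, and the red bars for Sox (35.3%) and Tead (39.6%) strings.

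Within the range of 5 to 50 kb, distance itself made little difference. Of sites 5 to 10 kb away 9.40% were lower, and the share was 8.70% for those up to 20 kb, 9.30% for those up to 35 kb and 10.5% for the farthest. The higher share stayed between 3.88% and 4.68%. At the limits of the range, lower shares were 5.41% from 4 to 5 kb, 9.65% from 5 to 6 kb, 9.58% from 45 to 50 kb and 7.72% from 50 to 55 kb. Sites upstream of their nearest TSS numbered 3688, of which 8.84% were lower and 4.39% higher, and sites downstream 1946, with 10.4% and 3.75%.

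Base composition and chromosome went with larger contrasts. The lower share was 15.7% in the 261 sites with up to 40% GC and 5.32% in the 1071 sites over 55% GC. By chromosome it ran from 5.57% on chromosome 8 to 16.3% on chromosome 16, where 29 of 178 sites were lower. The 498 sites within 1 kb of a GENCODE TSS that curated RefSeq lacks were more open (WT median of 6.17, against 5.85) and less often lower (5.22%, against 9.79%) or higher (1.81%, against 4.40%). Named sites of this kind included the lower ones by Foxa2 (191 bp) and Sox4 (833 bp), the Eomes site at -0.57 (691 bp) and the Tgif1 site (56 bp). Repeat-rich sites had a median difference of -0.01 where repeats exceeded 50% of the window (789 sites), and such windows made up 18.7% of higher, 12.7% of lower and 13.9% of remaining sites.

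Sites close to each other had weakly similar differences. Across 510 pairs of neighbouring sites up to 5 kb apart in 1 interval, Pearson's r of the differences was 0.31. It was 0.15 for 697 pairs 5 to 20 kb apart, 0.11 for 570 pairs farther apart in the same interval and 0.12 for 3838 pairs in successive intervals. All pairs share the same libraries and clones, and the values describe sites and not replicates. Of the closest pairs, 9 were both lower, 7 both higher and 1 opposite.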

How the data were processed

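ATAC-seq libraries came from 3 differentiations each of WT and Smad2/3 DKO EpiLCs. Read pairs were mapped by the authors with bowtie2 (mm10), who dropped those that map to several places or to a blacklist, removed duplicates with Samtools, called sites with DANPOS2 against the Tn5 control and counted them with DiffBind. Tool versions and the normalization are not given in the sources used here. The deposited values are log2 concentrations, computed by the authors as the log2 of the mean normalized reads, for each genotype and for all libraries. Depth per library is unknown. The 3 columns of the authors' own comparison (fold, p-value and FDR) were not used. No test over samples could be made, since the table holds no value per library.

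Sites were annotated by midpoint with 45756 curated transcripts of 26180 genes (RefSeq, GRCm38.p6) and set beside GENCODE M21. Differences are DKO minus WT concentration. A site was counted as lower or higher past 1.5-fold, at a concentration of at least 5. Strings were matched in 500 bp around the midpoint of the reference genome. Sites named are the 12 lowest and 12 highest differences, the 5 highest WT concentrations, up to 3 lowest and 3 highest per gene list, and the 5 intervals with the most sites past 1.5-fold, leaving out a few items that are not reported here, with others said to be added after their values were seen, among them further sites of listed genes. Members, lists and strings were chosen with earlier results of these data known. Scripts (Python 3.11.15 with matplotlib 3.10.9, pandas 2.3.3 and numpy 2.4.6) were tested on simulated sites. The alternatives tried were another minimum, fold, transcript set, distance range, window and centring, and leaving out chromosome 6.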

Additional observations from a re-analysis of the deposited data

How the results depend on the processing

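The median difference stayed negative under every alternative in which it was computed, and centring was not among these. The other results are a level and shares, which have no direction to reverse. The median WT concentration of 5.88 was 4.81 with no minimum concentration and 6.68 with a minimum of 6. The lower and higher shares (9.39% and 4.17%) were 16.5% and 10.1% with no minimum (16.0% and 8.55% of all autosomal sites), 7.17% and 2.26% with a minimum of 6 (5.38% and 1.55%), and 2.34% and 1.08% past 2-fold. Centring on the median over all autosomal sites, those under the minimum included, gave 6.80% and 5.73% (6.52% and 4.54%), so lower sites made up less of the total. The alternative of counting all RefSeq transcripts gave 10.7% lower. The share of lower sites with the FoxH1 string was 5.30% past 2-fold. In a window of 300 bp the Tead string stood in 31.1% of higher, 20.0% of lower and 19.1% of remaining sites (16.8% of all autosomal sites). An alternative chosen after seeing the data, relative to the sites within 1 Mb, gave a median difference of -0.02 and shares of 6.76% and 5.01%. For this alternative the shares over all autosomal sites were not computed. Requiring whole sites outside transcripts, other distance ranges, leaving out chromosome 6 and, chosen after seeing the data, leaving out sites within 1 kb of a GENCODE TSS moved no share by over 1.5 times. No paired analysis was possible because each genotype has 1 mean in the table and single libraries have none, and for the same reason no replicate could be left out.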

Other observations

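Several genes had more than 1 differing intergenic site and belonged to no list. They are named here after their values were seen. Of the 4124 genes with a site at the minimum, 24 had at least 2 lower sites and 9 at least 2 higher ones, and 13 had both a lower and a higher site. Both sites upstream of Dppa4, a gene of pluripotent cells, were lower: the one at 49675 bp went from 5.81 in WT to 4.35 in DKO and the one at 36580 bp from 5.68 to 4.24 (differences of -1.46 and -1.44). By Btg1, an antiproliferative gene, sites 29734 and 42074 bp downstream had -1.11 and -0.90. By the neurotrophin gene Bdnf, sites on both sides of the open repeat-rich site (8.55 in WT, 8.63 in DKO) had -1.05 and -0.63.

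Upstream of Smarcad1, which encodes a chromatin remodeller, all 4 sites were above 0 (0.43, 0.34, 1.01 and 1.56). The noncoding genes Platr22 and Platr30, named for their association with pluripotency, each had 2 higher sites, at 0.77 and 1.03 and at 1.17 and 0.61. The Platr30 site at 1.17 was among the most open of the higher sites, with 7.31 in WT and 8.48 in DKO. Upstream of the potassium channel gene Kcnk5, sites went from 5.94 to 7.16 and from 5.11 to 5.89.

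Of the 5 intergenic sites that were most open in WT, 4 lay by Snap25 (10.14 in WT and 9.69 in DKO), Eef1a1 (10.08 and 10.07), 2010315B03Rik (9.84 and 9.72) and Gm10754 (9.76 and 9.69), all within 1.5-fold. Repeats covered 86.6% of the window at the Eef1a1 site and 63.8% at the Gm10754 site. The Snap25 and 2010315B03Rik sites lay 646 and 196 bp from a GENCODE TSS.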
